A study of Mus musculus with 12 samples.

Results

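The 42 genes described here mark epithelium: keratins, proteins of cell junctions, transcription and splicing regulators of epithelial cells, membrane proteases with their inhibitors, and proteins that anchor epithelium to the matrix beneath it. They were taken as a named list of oral epithelium genes, and each was read from its brightest probe set with a single gene symbol, chosen by the mean over 12 arrays without regard to genotype. All 42 were measured, out of 18193 genes on the array. The arrays profiled the tongue of C57BL/6J mouse embryos at day 13.5 of development. The 6 mutant samples were Myf5-Cre;Smad4flox/flox, in which Cre recombinase driven by the muscle gene Myf5 can delete both copies of Smad4, the shared SMAD of the TGF-β and BMP pathways. The 6 control samples were Myf5-Cre;Smad4flox/+, so they carried the same Cre and also one floxed copy. Cre driven by Myf5 targets the muscle lineage, and the epithelium of the tongue lies outside that lineage. Whole tongue was used, and each sample was called a biological replicate, with no litter or number of pooled tongues given in the sources used here.

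The tongue at this stage is a muscle mass in a mesenchyme of neural crest origin, covered by a thin oral epithelium. That epithelium is beginning to stratify: a basal layer expresses Krt5, Krt14 and the transcription factor Trp63 (p63), while an outer layer of flat periderm cells and the early taste placodes still express keratins of simple epithelium such as Krt8 and Krt18. Epithelial cells hold together by adherens junctions (cadherins), desmosomes (desmoplakin, plakophilins, desmogleins, desmocollins) and tight junctions (claudins), and grainyhead-like factors and the ESRP splicing factors keep their identity.

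A minority of these genes passed the test as higher in the mutant tongue, by small amounts, and most did not pass. Of the 42 genes, 14 rose and none fell in limma's test (adjusted p under 0.05), that is 33.3% higher, against 6.30% of all 18193 genes. No member fell, against 4.80% of all genes. With genes under the median of all probe sets left out, 17 of the 39 remaining members rose, against 11.2% of 12162 genes. The differences of the 14 ran from 0.21 for Ap1m2 to 0.63 for Krt15 on the log2 scale, or 1.16-fold to 1.54-fold, and Krt15 alone reached a fold of 1.5. The median difference over the 42 genes was 0.25, against 0.01 over all genes, and 41 of the 42 lay above 0 (97.6%), against 52.9% of all genes. The highest control was below the lowest mutant for 4 members, Krt15, Cldn4, Prss8 and Col17a1. That is 9.52% of the members, against 3.40% of all genes that lay entirely higher in mutants. The members were chosen with earlier results of these data known, so these shares are descriptions and not tests.

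The count depended on which arrays, and how many, were included. It was 1 gene, Cldn4, without mutants 1 and 2, where 2.08% of all genes rose, and again Cldn4 alone without mutant 4, mutant 6 and control 3, where 2.42% of all genes rose; in both cases fewer samples were tested. The median difference was 0.16 without mutants 1 and 2, with 40 of the 42 genes above 0, and 0.27 without the other set, with all 42 above 0. Single arrays also moved the count, and with it the share of all genes that rose. The count was 6 without mutant 1 (4.03% of all genes), 7 without mutant 2 (4.19%), mutant 4 (4.30%), control 3 (4.79%) or control 6 (6.11%), 8 without control 1 (5.75%) and 9 without control 4 (4.60%). It was 19 without mutant 5 (6.65%). Over these fits without 1 array the median difference ran from 0.21 to 0.29. Whole-tongue RNA does not tell a larger share of epithelial cells from more RNA of these genes per cell.

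**Figure D1:**
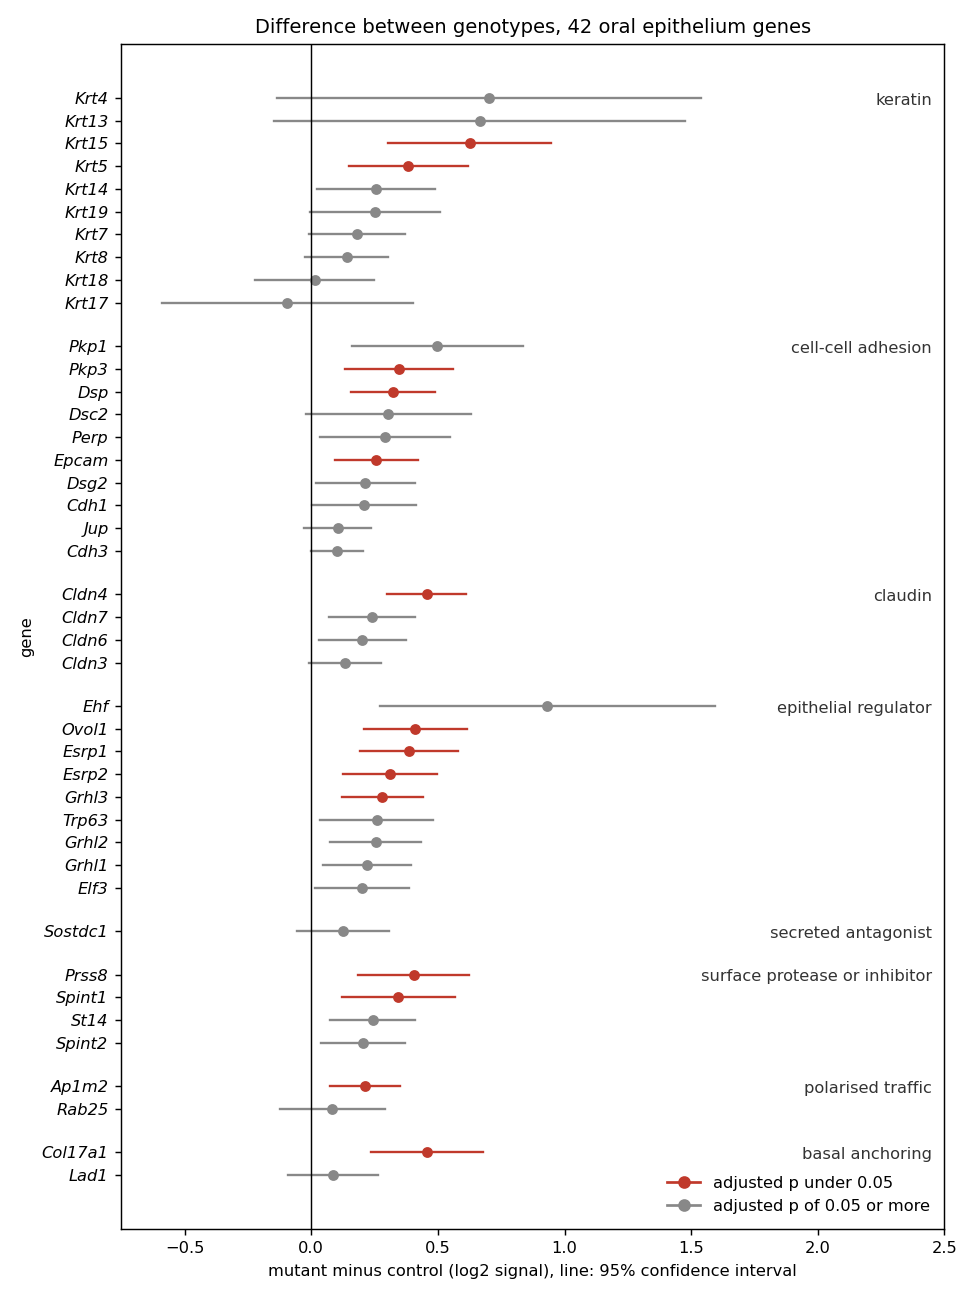
Difference between mutant and control tongue for each of the 42 genes, in log2 signal, with its 95% confidence interval from limma (n = 6 arrays per genotype) and genes grouped by role. Red marks the 14 genes with an adjusted p under 0.05; every point but that of Krt17 lies above 0, and Krt4, Krt13 and Ehf have the widest intervals.

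Along the first principal component of all genes mutants 1 and 2 scored 24.7 and 20.3 and the other mutants 2.90 to 14.8, while controls scored −16.7 to −9.44. Mutant 4, mutant 6 and control 3 gave signal of both sexes: Eif2s3y, a Y-linked gene, read 9.03 and 8.88 on mutants 4 and 6 beside Xist at 8.73 and 7.88, and 6.03 on control 3 beside Xist at 12.40. Smad4 read 11.58 on mutant 1, 12.18 to 12.30 on the other mutants and 12.16 to 12.35 on controls; these probe sets do not check the genotype. An 18S ribosomal probe set read 13.27 on mutant 6 and 13.74 on control 6, against 14.19 to 14.37 on the other arrays, and 8 members rose without both. Array medians lay between 6.10 and 6.18.

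The label was checked on the arrays. Krt5, Krt14, Trp63, Epcam and Cdh1, which together mark a basal oral epithelium, had means between 10.62 and 12.18 in mutants and between 10.36 and 11.80 in controls, where the median of all probe sets was 6.13. Of the 42 genes, 39 lay above that median by their mean, and Krt13, Ovol1 and Ehf lay under it. Thyroid and salivary epithelium could share several of these genes. Of 9 measured markers of those organs none passed, and 3 lay above the median of all probe sets. These were Sox10, Hhex and Kcnn4, with means of 8.78, 7.54 and 6.14 in mutants, against 8.69, 7.43 and 6.38 in controls. Kcnn4 had the smallest p of the 9 (limma adjusted p = 0.0962). Nkx2-1, Pax8 and Tg, which define thyroid, read 5.62, 3.95 and 4.85 in mutants, against 5.51, 4.03 and 5.13 in controls. Whether thyroid or salivary tissue was included in the samples was not tested.

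Promoter windows from RefSeq (GRCm38.p6), from 250 bases before to 50 after a transcript start, were matched for 22 of the 42 genes in 25 windows. Of these, 3 are shown, written 5′ to 3′ along the gene: that of Cldn4, which passed in every fit, that of Col17a1, whose groups did not overlap, and that of Rab25, which did not pass. Capitals mark exact matches, on either strand, to 3 motifs. The first is the grainyhead-like site AACCNGTT. The second is AGGAAG, which holds the core bound by ETS factors such as Ehf and Elf3. The third is the core promoter box spelled TATAAA. No match of one motif overlapped a match of another. The Cldn4 window is chr5:134946885-134947184. The Col17a1 window is chr19:47691993-47692292. The Rab25 window is chr3:88548230-88548529. All 3 lie on the minus strand.
Cldn4: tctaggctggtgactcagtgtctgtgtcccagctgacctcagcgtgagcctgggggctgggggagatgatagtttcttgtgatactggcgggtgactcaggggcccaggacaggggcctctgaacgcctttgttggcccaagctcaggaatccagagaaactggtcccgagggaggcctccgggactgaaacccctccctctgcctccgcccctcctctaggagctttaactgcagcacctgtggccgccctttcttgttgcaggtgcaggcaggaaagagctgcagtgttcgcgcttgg
Col17a1: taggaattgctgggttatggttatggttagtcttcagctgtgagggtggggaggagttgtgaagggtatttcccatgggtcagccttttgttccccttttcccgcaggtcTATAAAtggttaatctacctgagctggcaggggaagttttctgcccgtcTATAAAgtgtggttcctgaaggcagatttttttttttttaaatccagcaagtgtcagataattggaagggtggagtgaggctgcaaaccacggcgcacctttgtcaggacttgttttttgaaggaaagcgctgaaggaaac
Rab25: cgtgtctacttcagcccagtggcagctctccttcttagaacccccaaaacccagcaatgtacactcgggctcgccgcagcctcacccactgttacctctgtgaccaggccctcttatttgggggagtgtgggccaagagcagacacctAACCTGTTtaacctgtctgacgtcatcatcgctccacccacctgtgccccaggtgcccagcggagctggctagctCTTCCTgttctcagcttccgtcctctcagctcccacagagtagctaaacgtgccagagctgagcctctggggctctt

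AACCNGTT occurred in 1 of the 25 windows (4%), that of Rab25, against 2.09% of 32851 windows of all genes. AGGAAG occurred in 8 windows (32%), of 7 genes, against 35.4% of all windows, and TATAAA in 2 (8%), those of Col17a1 and Krt8, against 13.6%. The Cldn4 window held none of the 3 motifs. Of the 7 genes with AGGAAG (Ap1m2, Cldn7, Grhl1, Krt7, Krt8, Krt13 and Rab25), Ap1m2 was among those that rose.

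Keratins, the intermediate filament proteins of epithelium, ranged in difference from −0.09 for Krt17 to 0.70 for Krt4. Of 10 keratins, Krt5 and Krt15 rose and the others did not pass, with a median of 0.25. Krt15, a keratin of basal cells, read 13.16 to 13.80 in mutants (median 13.36), against 12.13 to 13.08 in controls (median 12.90). All 6 mutants were above all 6 controls, and control 1 lay far below the other controls. The difference was 0.63 ± 0.15 (SE, adjusted p = 0.0157). Krt5, the basal type II keratin, read 11.92 to 12.50 in mutants (median 12.16), against 11.47 to 11.98 in controls (median 11.84), and 5 of 6 mutants were above every control. It rose by 0.38 ± 0.11 (SE, adjusted p = 0.0373). Krt14, the type I partner of Krt5, read 11.76 to 12.31 in mutants (median 11.95), against 11.46 to 11.99 in controls (median 11.75); its difference of 0.26 did not pass (adjusted p = 0.160).

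None of the 4 keratins of simple epithelium passed. Krt18 read 10.24 to 11.03 in mutants (median 10.44), against 10.32 to 10.66 in controls (median 10.52). Mutant 1 was above all controls and mutant 3 below all of them, and the difference of 0.01 had a 95% interval of −0.22 to 0.25. Its partner Krt8 differed by 0.14 (interval −0.02 to 0.30), and 2 further Krt8 probe sets differed by 0.16 and 0.14. Krt7 and Krt19 differed by 0.18 and 0.25. The adjusted p ran from 0.209 for Krt19 to 0.959 for Krt18. Whether basal and simple keratins differ in their response was not tested.

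The keratins of the maturing oral surface varied most within a genotype. Krt4, a keratin of suprabasal oral and oesophageal cells, read 7.38 to 9.22 in mutants (median 8.28), against 6.13 to 8.73 in controls (median 7.77), and the groups overlapped over most of their range. Krt13, the type I partner of Krt4, read 4.62 to 7.38 in mutants (median 5.17), against 4.06 to 5.31 in controls (median 4.84). Mutant 2 alone held the value of 7.38, and without it the Krt13 difference of 0.67 was 0.28. Krt17, a keratin of periderm, appendages and injured epithelium, read 6.59 to 7.94 in mutants (median 7.41), against 6.91 to 8.26 in controls (median 7.46). It was the member below 0, at −0.09 (interval −0.59 to 0.40). Control 1 was the lowest control for Krt4, Krt13 and Krt17, and control 2 the highest. The brightest probe sets of Krt4 and Krt14 carry the suffix _x_at, which Affymetrix gives to probe sets that may also bind other transcripts. The second Krt4 probe set differed by 0.40 and the second and dimmest Krt14 probe sets by 0.25 and −0.05, and none of these passed.

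Of 10 genes of cell-to-cell adhesion 3 rose and 7 did not pass, and the median was 0.27 with all 10 above 0. Dsp encodes desmoplakin, which ties desmosomes to keratin filaments. It read 12.19 to 12.60 in mutants (median 12.43), against 11.97 to 12.26 in controls (median 12.11), with 5 of 6 mutants above every control. Dsp rose by 0.32 ± 0.08 (SE, adjusted p = 0.0154), and a second bright probe set differed by 0.38, with an adjusted p of 0.127 over all probe sets. With its 3 probe sets averaged, the dimmest of them at −0.08, Dsp differed by 0.21 and did not pass (adjusted p = 0.0934). Pkp3, a desmosomal plakophilin, read 8.47 to 9.03 in mutants (median 8.70), against 8.23 to 8.54 in controls (median 8.37), and rose by 0.35 ± 0.10 (SE, adjusted p = 0.0387). Epcam, a surface adhesion protein of epithelium, read 11.06 to 11.37 in mutants (median 11.18), against 10.68 to 11.11 in controls (median 10.98), and rose by 0.26 ± 0.08 (SE, adjusted p = 0.0457). A second, dimmer Epcam probe set differed by −0.03, and with both averaged the Epcam difference was 0.11 and did not pass (adjusted p = 0.439). For Pkp3 and Epcam 4 of 6 mutants were above every control, and the others lay within the control range.

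Pkp1, another plakophilin, had the largest difference of this role and did not pass. It read 9.62 to 10.45 in mutants (median 9.92), against 9.09 to 9.80 in controls (median 9.50), a difference of 0.50 (adjusted p = 0.0589). Pkp1 passed in 6 of 23 alternative fits. Cdh1, E-cadherin of the adherens junction, read 11.14 to 11.48 in mutants (median 11.21), against 10.76 to 11.28 in controls (median 11.09), a difference of 0.21 (adjusted p = 0.193). Cdh3, P-cadherin of basal cells, differed by 0.10, and its dimmer probe set by −0.01. Jup, the plakoglobin of both junction types, differed by 0.10. Perp, a tetraspan protein of desmosomes, differed by 0.29, the desmoglein Dsg2 by 0.21 and the desmocollin Dsc2 by 0.30. A dimmer Dsg2 probe set differed by 0.30 and passed over all probe sets (adjusted p = 0.0331).

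Claudins seal tight junctions and set their permeability. All 4 lay above 0 and Cldn4 rose. Cldn4 read 9.34 to 9.61 in mutants (median 9.42), against 8.83 to 9.11 in controls (median 9.07), and the groups did not overlap. It rose by 0.46 ± 0.07 (SE, adjusted p = 0.00141), or 1.37-fold. Among the 42 genes Cldn4 had the smallest adjusted p, and it alone passed in all 23 alternative fits, with differences from 0.41 to 0.48. Cldn7 read 9.55 to 9.95 in mutants (median 9.64), against 9.32 to 9.66 in controls (median 9.44), a difference of 0.24 (adjusted p = 0.0687). Cldn6, a claudin of embryonic epithelium, differed by 0.20 and Cldn3 by 0.13, and a dimmer Cldn3 probe set by −0.02.

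**Figure D2:**
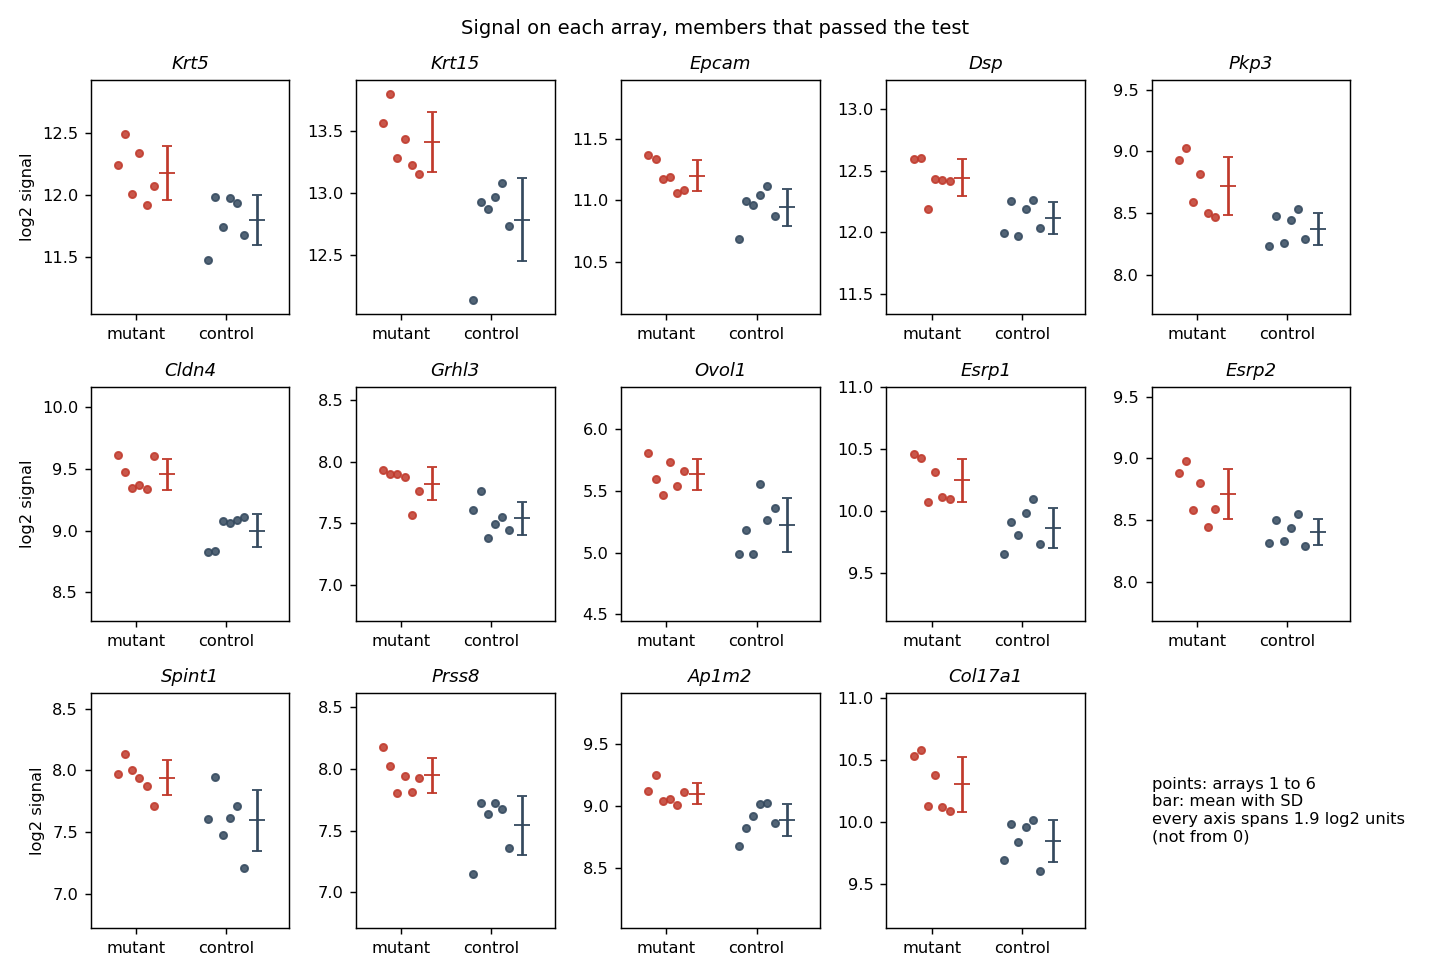
Log2 signal of the 14 genes with an adjusted p under 0.05 on each mutant and each control array, with the group mean and SD (n = 6 each); each vertical axis spans the same range and does not start at 0. The groups are separate for Krt15, Cldn4, Prss8 and Col17a1 and overlap on 1 or more arrays for the others.

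Regulators of epithelial identity included 4 that rose, and all 9 lay above 0 with a median of 0.28. Esrp1, an RNA-binding protein that sets epithelial splicing, read 10.07 to 10.46 in mutants (median 10.21), against 9.65 to 10.09 in controls (median 9.86), and rose by 0.39 ± 0.09 (SE, adjusted p = 0.0138). Esrp2, its paralogue, read 8.45 to 8.98 in mutants (median 8.70), against 8.29 to 8.55 in controls (median 8.38), and rose by 0.31 ± 0.09 (SE, adjusted p = 0.0345). For both, 5 of 6 mutants were above every control. Grhl3, a grainyhead-like factor of the surface and periderm, read 7.57 to 7.93 in mutants (median 7.89), against 7.39 to 7.76 in controls (median 7.52), and rose by 0.28 ± 0.07 (SE, adjusted p = 0.0260). Ovol1, a zinc finger repressor that promotes epithelial differentiation, read 5.47 to 5.81 in mutants (median 5.63), against 4.99 to 5.55 in controls (median 5.22), and rose by 0.41 ± 0.09 (SE, adjusted p = 0.0127). Control 4 lay within the mutant range for Ovol1, and its dimmer second probe set differed by 0.09. With both averaged, Ovol1 rose by 0.25 (adjusted p = 0.0163).

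The other regulators did not pass. Ehf, an ETS factor of epithelium, had the largest difference of all 42 genes, at 0.93 (interval 0.27 to 1.59, adjusted p = 0.0698). It read 4.42 to 6.48 in mutants (median 5.24), against 3.91 to 4.99 in controls (median 4.44). Mutants 2, 3 and 6 were above every control and the other mutants were within the control range. Its 3 dimmer probe sets differed by −0.17, 0.06 and 0.29. Trp63, the p63 factor of the basal layer, read 10.45 to 10.86 in mutants (median 10.58), against 10.04 to 10.58 in controls (median 10.40), a difference of 0.26 (adjusted p = 0.134). The 3 dimmer probe sets of Trp63 differed by −0.12, −0.17 and −0.04. The grainyhead-like factors Grhl2 and Grhl1 differed by 0.25 and 0.22, and the ETS factor Elf3 by 0.20. Dimmer Grhl2 probe sets differed by −0.009, −0.099 and 0.005. Sostdc1, a secreted antagonist of BMP and Wnt signalling made in the epithelium around taste placodes, read 11.59 to 12.03 in mutants (median 11.89), against 11.52 to 11.87 in controls (median 11.82), a difference of 0.13 (adjusted p = 0.403).

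Membrane proteases and their inhibitors form an epithelial cascade, in which matriptase (St14) and prostasin (Prss8) act at the cell surface and are held in check by the Kunitz inhibitors Spint1 and Spint2. All 4 lay above 0 and Prss8 and Spint1 rose. Prss8 read 7.80 to 8.18 in mutants (median 7.93), against 7.14 to 7.72 in controls (median 7.65), without overlap, and rose by 0.40 ± 0.10 (SE, adjusted p = 0.0207). Spint1 read 7.71 to 8.14 in mutants (median 7.96), against 7.21 to 7.95 in controls (median 7.61). It rose by 0.34 ± 0.10 (SE, adjusted p = 0.0487), with 3 of 6 mutants above every control. St14 differed by 0.24 (adjusted p = 0.0649). Spint2 read 10.95 to 11.32 in mutants (median 11.16), against 10.73 to 11.08 in controls (median 11.01), a difference of 0.21 (adjusted p = 0.110), and its second probe set differed by 0.20.

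Col17a1 encodes collagen XVII, a hemidesmosomal protein of basal cells. It read 10.09 to 10.58 in mutants (median 10.26), against 9.60 to 10.02 in controls (median 9.90), without overlap. Col17a1 rose by 0.46 ± 0.10 (SE, adjusted p = 0.0117). Lad1, ladinin of the basement membrane zone, differed by 0.09 (interval −0.09 to 0.26). In polarised traffic, Ap1m2, the epithelial subunit of the AP-1 adaptor, read 9.01 to 9.25 in mutants (median 9.08), against 8.67 to 9.02 in controls (median 8.89). It rose by 0.21 ± 0.06 (SE), with an adjusted p of 0.0499 that was the nearest to the threshold among the 14, and 5 of 6 mutants were above every control. Rab25, a small GTPase of apical recycling, read 7.88 to 8.30 in mutants (median 8.14), against 7.80 to 8.30 in controls (median 8.04), a difference of 0.08 (adjusted p = 0.665).

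**Figure D3:**
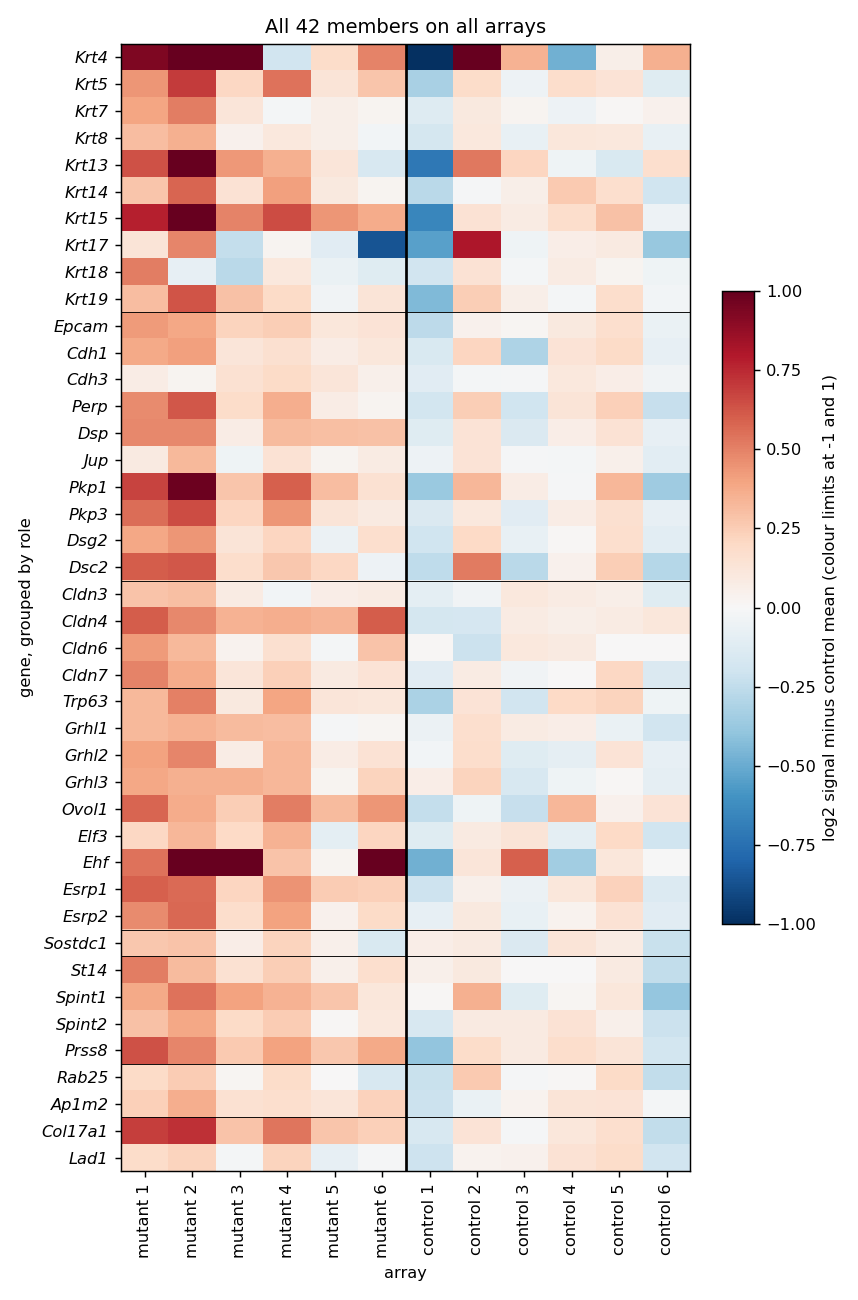
Log2 signal of the 42 genes on the 6 mutant and 6 control arrays, each minus the control mean of that gene; red is above and blue below the control mean, with colour limits at −1 and 1. Mutants 1, 2 and 4 are red for nearly every gene, mutants 5 and 6 paler, and control 1 and control 6 mostly blue.

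The arrays of each genotype also differed among themselves in these genes. The mean of the 42 genes, each taken relative to its control mean, was 0.43, 0.55, 0.23, 0.28, 0.10 and 0.15 on mutants 1 to 6. On controls 1 to 6 it was −0.23, 0.17, −0.01, 0.05, 0.12 and −0.11. Mutants 5 and 6 thus lay within the control range, and mutants 1 to 4 above it. Mutant 2 held the highest mutant value for 28 of the 42 genes and mutant 1 for 10, while mutant 5 held the lowest for 18 and mutant 6 for 13. Among controls, control 2 was highest for 20 genes and control 1 lowest for 23. The control means thus ran from −0.23 to 0.17, and the mean difference between genotypes over the 42 genes was 0.29.

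Lists of muscle, neuron and mesenchyme genes differed between the genotypes on the same arrays, and an endothelial list overlapped. The mean of 16 skeletal muscle genes lay between −1.06 and −0.52 on mutants, against −0.33 to 0.20 on controls, and 15 of the 16 fell. The mean of 12 neuron genes lay between 0.28 and 1.00 on mutants, against −0.12 to 0.11 on controls, and 11 rose. The mean of 15 cranial mesenchyme genes lay between 0.17 and 0.42 on mutants, against −0.10 to 0.13 on controls, and 10 rose. The mean of 12 endothelial genes lay between −0.03 and 0.19 on mutants, against −0.08 to 0.09 on controls, and 1 rose. Mutant 1 was lowest for muscle and highest for mesenchyme, and mutant 2 was highest for neurons and for the epithelial genes. The part of these lists in the epithelial differences was not tested.

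**Figure D4:**
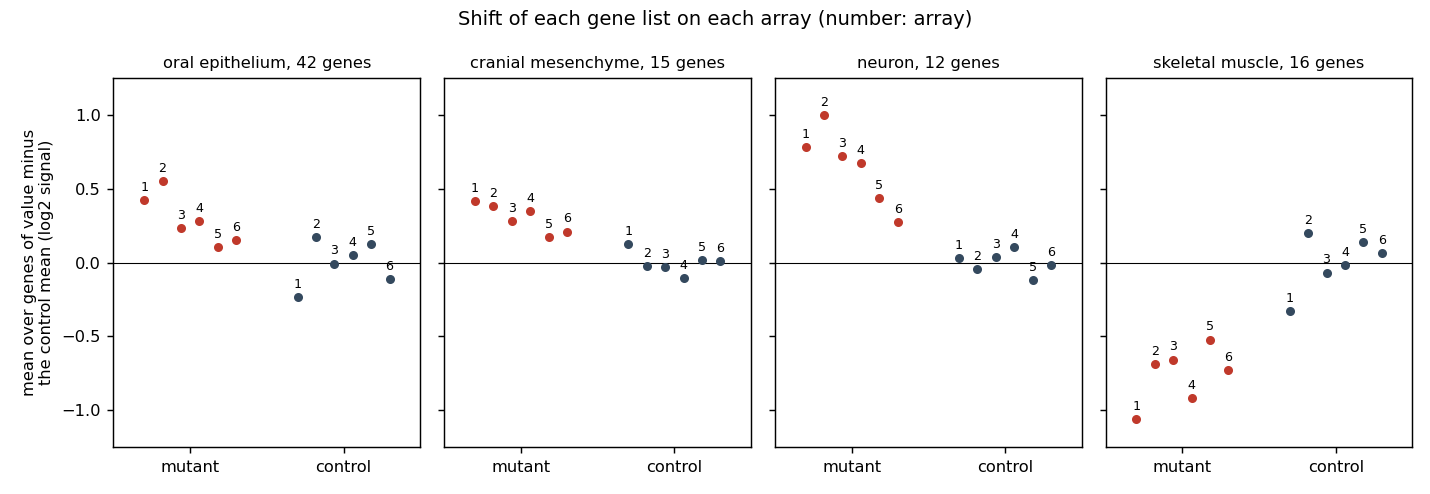
Mean shift of 4 gene lists on each mutant and control array, in log2 signal relative to the control mean of each gene; numbers beside the points are replicate numbers. The epithelial points of mutants 5 and 6 lie within the control range, whereas every mutant lies outside the control range for mesenchyme, neuron and muscle.

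Further epithelial genes outside the 42 were read from 5 lists. Among 19 measured junction and hemidesmosome genes the median was 0.20, and 5 rose and 1 fell. The claudin Cldn1 rose by 0.65, the desmocollin Dsc3 by 0.52, the tight junction protein Ocln by 0.37 and the envelope protein Evpl by 0.30. Pkp2, a plakophilin also present outside epithelium, fell by 0.45 and was named after its value was seen. Of 11 transcription factors none passed, with a median of 0.19. In limma's test 6 of the 11 had an unadjusted p under 0.05, against 24.8% of all genes. Klf5, at −0.28, was among these 6. The smallest p was that of Elf5, at 0.60 (adjusted p = 0.0708). Of 16 genes of suprabasal cells and periderm, Krt1 alone rose (0.47), with a median of 0.05. Only 9 of the 16 lay above the median of all probe sets, so low signal limits this list.

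Ligands made in oral epithelium went both ways. Of 13 measured, 2 rose and 2 fell, with a median of 0.03. Shh, the hedgehog ligand of taste placodes, read a mean of 11.03 ± 0.21 in mutants and 10.47 ± 0.25 in controls (SD, n = 6 each) and rose by 0.56 (limma adjusted p = 0.00899), and Wnt4 rose by 0.42. Fgf9 fell by 0.70 and Pdgfa by 0.31, and for both every mutant was below every control. Fgf9 varied more among mutants (SD 0.55) than among controls (SD 0.05). The tissue in which these ligands rose or fell was not separated here. Among 10 genes of taste placodes and papillae, Krt8 and Shh included, the median was 0.22, and 5 rose and 1 fell. The hedgehog receptor Ptch1 rose by 0.41, its effector Gli1 by 0.39 and the stem cell receptor Lgr5 by 0.36. Prox1 fell by 0.48 (limma adjusted p = 0.0173), and its mean of 6.07 lay under the median of all probe sets (6.13). Ptch1, Gli1 and Lgr5 are also expressed in mesenchyme, which was not separated here, and neither was the tissue in which Prox1 fell.

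**Figure D5:**
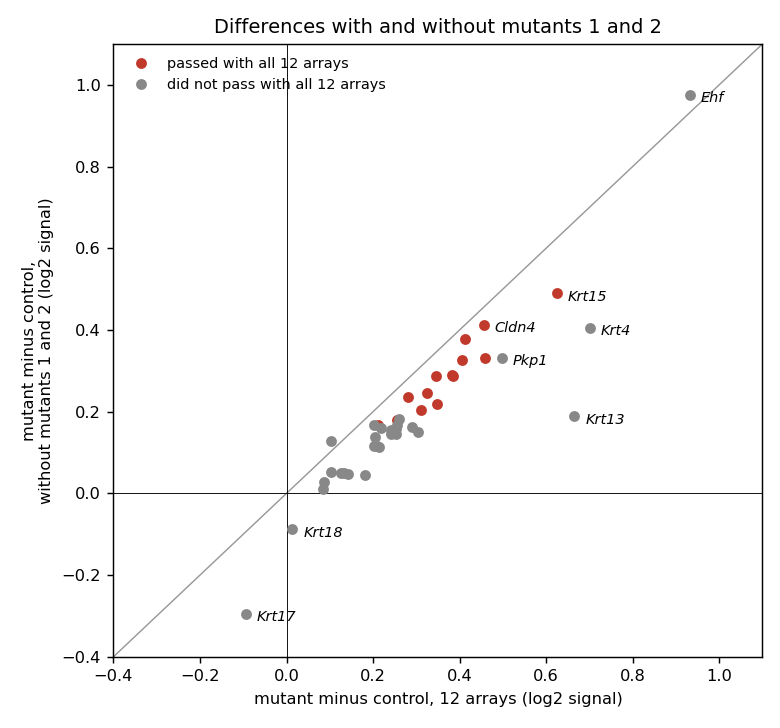
Mutant minus control difference of the 42 genes (log2 signal) with all 12 arrays on the horizontal axis and without mutants 1 and 2 on the vertical axis; the grey diagonal marks equal values. All points but those of Cdh3 and Ehf lie below the diagonal, Cldn4 stays close to it at 0.41, and Krt17 and Krt18 lie below 0 on the vertical axis.

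Fits that left arrays out differed in which genes they called. Of the 14 genes that rose, 6 passed in all 12 fits that each left out 1 array: Krt15, Dsp, Cldn4, Ovol1, Esrp1 and Col17a1. Prss8 passed in 11. Krt5 passed in 6, Grhl3 and Esrp2 in 5, Pkp3 in 4, Epcam and Ap1m2 in 3 and Spint1 in 2. Without mutants 1 and 2, Cldn4 rose by 0.41 (adjusted p = 0.0125), while Krt15 differed by 0.49 (adjusted p = 0.0965), Col17a1 by 0.33 (adjusted p = 0.0658), Ovol1 by 0.38 (adjusted p = 0.0706), Esrp1 by 0.29 (adjusted p = 0.0879) and Dsp by 0.25 (adjusted p = 0.101).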

How the data were processed

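RNA of whole tongue was hybridised to Affymetrix mouse expression arrays, 1 per sample. The deposited table holds log2 signals per probe set from RMA, which the submitters' processing notes name without a version; base 2 was inferred from the range (2.57 to 15.09). RMA forces nearly equal distributions on the arrays, which hides any change common to most genes. Of 45101 probe sets, 64 controls were left out and 34945 had 1 gene symbol in GEO's platform annotation. Genotypes were compared on these values in limma 3.58.1 (R 4.3.3; lmFit, eBayes, 2-sided, genotype as the only term). P-values were adjusted by Benjamini and Hochberg's method across the 18193 genes, and 0.05 was the threshold. The test was checked on simulated data. Every member was named. From the lists of further epithelial genes up to 4 passing genes by smallest p were named, or the smallest p where none passed. Pkp2, Klf5 and Prox1 were named outside this rule. Thyroid and salivary genes were named as thyroid markers or for lying above the median of all probe sets. From the muscle, neuron, mesenchyme and endothelial lists no gene was named. The members and lists were chosen with earlier results of these data known. No count of members or list median is a set test. The number of arrays limits the precision, and p-values weigh the difference between genotypes against the spread between these samples. Alternatives changed normalisation, probe sets per gene, the dim filter, variance, array weights, the replicate block and the arrays included.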

Additional observations from a re-analysis of the deposited data

Results flagged for a closer look

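In 84 groups of 6 values (42 genes, each genotype), 5 held a value far from the others by Dixon's criterion, where chance gives about 1 in 20 groups. Krt13 read 7.38 on mutant 2, with the next mutant at 5.42. Elf3 read 6.45 on mutant 5, below the next mutant at 6.75. Krt15 read 12.13 on control 1, below the next control at 12.74. Cldn6 read 7.99 on control 2, with the next control at 8.21, and St14 read 7.81 on control 6, with the next at 8.06.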

How the results depend on the processing

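The number of members that rose was 14 with all arrays and 6 to 19 with 1 array left out. It was 8 with arrays centred on their medians, with every probe set tested on its own, or without mutant 6 and control 6, and 9 with probe sets averaged per gene. It was 1 without mutants 1 and 2 and 1 without mutant 4, mutant 6 and control 3. No member fell in any of the 23 alternatives. With 1 array left out the median difference was 0.21 to 0.29, and the number without overlap 4 to 9, where 3.54% to 5.15% of all genes lay entirely higher in mutants. It was 9 without mutant 5 (5.15%) and 7 without control 5 (4.27%). Without mutants 1 and 2 the median was 0.16. Krt17, Krt18 and Trp63 changed sign in some alternatives, and none of these differences passed. Krt17 was −0.21 to 0.0680 with 1 array left out and 0.0579 without mutant 4, mutant 6 and control 3. Krt18 was −0.0867 to 0.0696 with 1 array left out, −0.00328 with quantile normalisation and −0.0883 without mutants 1 and 2. Trp63 was −0.0184 with its probe sets averaged. With 1 array left out, the median of epithelial ligands was −0.0119 to 0.0725 and that of thyroid and salivary genes −0.00537 to 0.103. The thyroid and salivary median was −0.0014 without mutants 1 and 2 and −0.000888 without mutant 6 and control 6. With the replicate number as a block 14 members rose. Deviations from the genotype mean over all genes correlated by −0.06 to 0.24 between samples of one number. In that check 7 of 12 samples correlated best with their own number. The causes were not tested. Low signal limits Ehf, Krt13 and Ovol1.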
